A study of Mus musculus with 8 samples.

Results

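Genes of cholesterol and fatty acid synthesis were followed in the lower first molars of 4 mutant and 4 control mouse embryos at E18.5, shortly before birth. The set held 32 genes, named by symbol, of the 43629 genes listed for every embryo, and all 32 passed the filter on low counts that left 17129 genes to be tested. Mutants were K14Cre;Jagged1fl/fl embryos, in which a keratin 14 promoter drives Cre in the dental epithelium and deletes the floxed Jagged1 alleles there, while the dental mesenchyme keeps the gene. Controls were Jagged1fl/fl littermates by the labels, and the study calls them WT. Left and right molars of one animal were pooled, so each value is one embryo and holds epithelium and mesenchyme together. Sex and litter were not given by the labels. The comparison asks which genes respond in the molar when its epithelium lacks Jagged1, a ligand of the Notch receptors.

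The libraries held 17327224 to 29792467 counts. Jag1 stood at 95.2 to 104 CPM (counts scaled to a common library size) in the controls and at 34.0 to 57.1 CPM in the mutants, and its log2 fold change was -1.19 ± 0.14 (SE, n = 4 per group; adjusted p = 0.00517, edgeR quasi-likelihood test). Control embryos J6 and J7 carried skeletal muscle transcripts, with summed marker levels of 409 and 206 CPM; no other embryo exceeded 19.4 CPM. Mutant embryos K14J28 and K14J29 carried Xist at 1930 and 1468 CPM, against at most 1.09 CPM elsewhere. In mutant K14J26 the enamel matrix genes Amelx, Ambn and Enam took 9.57% of all counts, against 0.0559% to 0.329% in the controls.

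Cells build cholesterol from acetyl-CoA, first through mevalonate to isoprenoid units, then through squalene and lanosterol to the sterol itself. Fatty acids start from the same acetyl-CoA, are assembled to palmitate by fatty acid synthase and are then desaturated and elongated. The transcription factors SREBP1 and SREBP2 drive the genes of these pathways; SCAP carries them out of the endoplasmic reticulum when sterols are low, and INSIG proteins hold them there when sterols are high. Cholesterol also modifies Hedgehog ligands, which pattern the tooth, and inherited defects of its late steps affect craniofacial and dental development.

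The start regions of 3 genes are printed from the RefSeq promoter table (GRCm38.p6, plus strand, 5′ to 3′). Insig1 and Elovl1 carry called changes. Hmgcs1 alone of the 26 members with a window in it has a match to the sterol element searched for. Capitals mark matches on either strand to TCACNCCAC (a sterol regulatory element), CCAAT (the NF-Y box) and GGGCGG (the Sp1 box), which may overlap each other.
Insig1, chr5:28071162-28071362: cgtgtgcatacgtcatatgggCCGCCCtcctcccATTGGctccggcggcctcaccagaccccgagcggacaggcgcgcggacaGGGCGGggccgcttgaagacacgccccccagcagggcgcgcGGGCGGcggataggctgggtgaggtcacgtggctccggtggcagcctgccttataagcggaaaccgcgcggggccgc
Hmgcs1, chr13:119690101-119690350: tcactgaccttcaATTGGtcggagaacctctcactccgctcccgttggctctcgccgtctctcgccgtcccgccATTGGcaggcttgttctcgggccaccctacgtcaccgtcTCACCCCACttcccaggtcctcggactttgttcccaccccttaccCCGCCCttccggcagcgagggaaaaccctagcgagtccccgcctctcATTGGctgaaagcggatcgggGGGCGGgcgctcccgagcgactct
Elovl1, chr4:118427843-118428092: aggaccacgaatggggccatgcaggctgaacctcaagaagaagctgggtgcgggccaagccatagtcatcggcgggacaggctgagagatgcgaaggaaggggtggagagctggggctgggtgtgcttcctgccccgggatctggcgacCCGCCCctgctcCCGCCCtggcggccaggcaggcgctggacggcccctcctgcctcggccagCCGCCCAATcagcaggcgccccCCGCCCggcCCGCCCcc
The Hmgcs1 match to the sterol element lies at chr13:119690214-119690222, 129 bases before the RefSeq start. The table held a window from 250 bases before to 50 bases after the start for 26 of the 32 genes. TCACNCCAC occurred in 1 of these 26, against 1.22% of all 27025 windows. CCAAT occurred in 20 of 26, or 76.9%, against 37.9% of all windows, and GGGCGG in 20 of 26 against 35.9%. These are matches of letters, not measured binding.

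Few of the synthesis genes differed between mutant and control molars. Elovl1, an elongase of very long saturated chains, rose, and Insig1 and Fads1 fell, while the other 29 members did not pass an adjusted p of 0.05. With 1 of 32 members higher and 2 of 32 lower, the counts stood against a background of 9.52% of all tested genes called higher and 6.61% called lower. At an unadjusted p under 0.05 the edgeR quasi-likelihood test gave 4 higher members (Elovl1, Scd2, Elovl5 and Fdft1) and 2 lower ones, where 19.1% of all tested genes were higher and 15.7% lower. The mutant and control values did not overlap in 5 of the 32 members, against 24.2% of all tested genes. The median log2 fold change over the members was -0.03, against 0.01 over all tested genes, and the median absolute log2 fold change was 0.13 against 0.22. The background genes include less abundant ones, whereas the lowest count of any member in any embryo was 128. For the 29 members not called, the 95% interval of the log2 fold change lay within 0.5 either way in 18 and within 1 either way in all 29, and the bounds reached from -0.79 to 0.56. Since whole molars were sequenced, fewer cells of a type and less RNA per cell cannot be told apart.

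**Figure D1:**
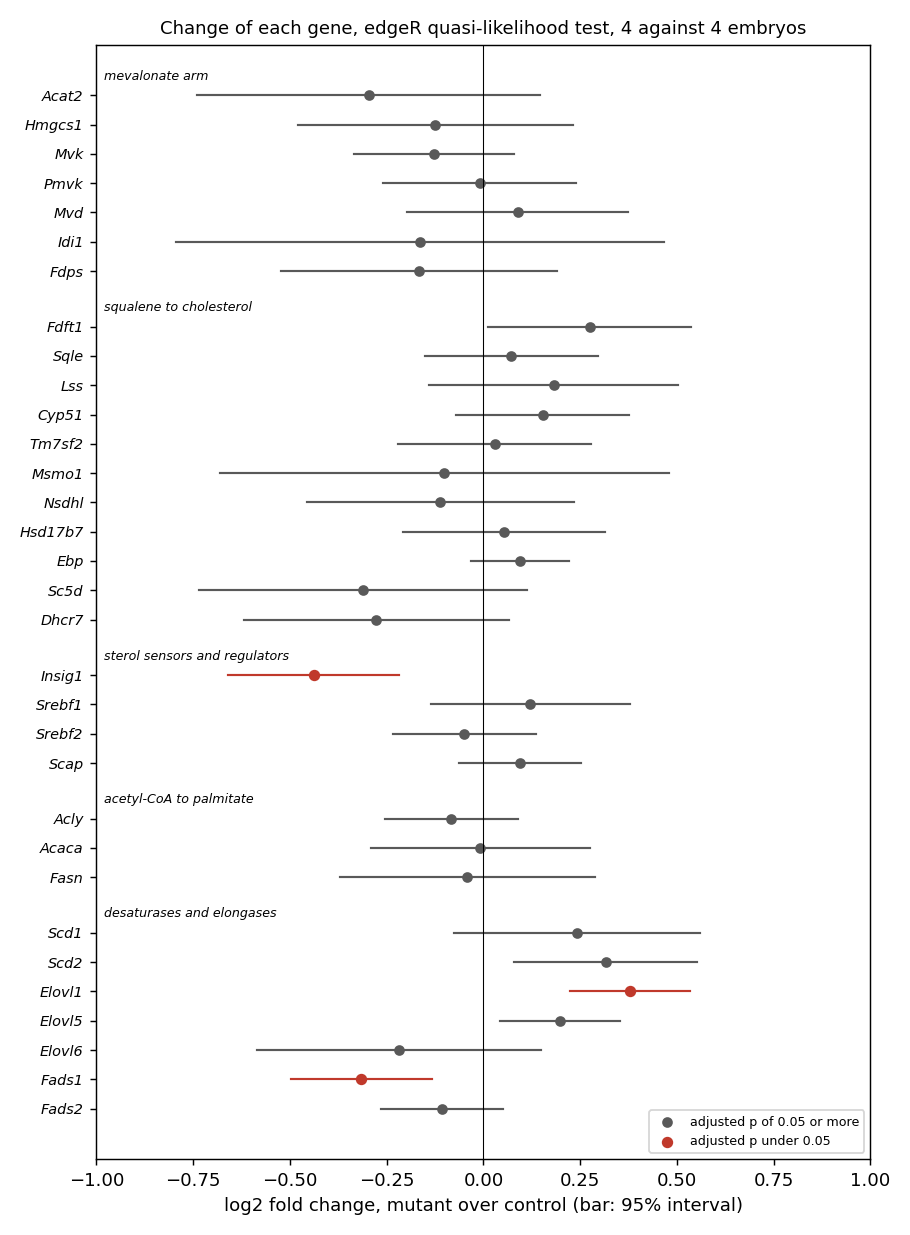
Log2 fold change of the 32 synthesis genes, mutant over control molars (points), with 95% intervals (bars), grouped by step and fitted with the edgeR quasi-likelihood test on 4 against 4 embryos. Insig1 and Fads1 at -0.44 and -0.32 and Elovl1 at 0.38 are drawn in red; the other 29 did not pass an adjusted p of 0.05.

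Among the 4 sensors and regulators in the set, Insig1, Srebf1, Srebf2 and Scap, Insig1 was the one called. Its product holds the SCAP and SREBP complex in the endoplasmic reticulum, and its own transcript is a well known SREBP target. Insig1 (chr5:28071363-28078662, plus strand) stood at 126, 141, 154 and 142 CPM in controls J3, J5, J6 and J7, and at 90.0, 108, 97.2 and 120 CPM in mutants K14J26, K14J28, K14J29 and K14J30. All 4 mutants lay below all 4 controls, with K14J26 lowest. The group means were 141 ± 11.7 and 104 ± 12.9 CPM (SD, n = 4 each), so that Insig1 fell by 26.2% (log2 fold change -0.44 ± 0.10 SE, adjusted p = 0.0223, edgeR quasi-likelihood test). The adjusted p of the same test was 0.0599 without J5, 0.0575 without J6, 0.0707 without J7 and 0.0729 without K14J29, while the log2 fold change stayed between -0.51 and -0.38 with any 1 embryo left out. The adjusted p was 0.189 without J6 and J7, 0.0710 without K14J28 and K14J29, 0.0639 without K14J26 and K14J29, and 0.0611 with Xist as a covariate.

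The other regulators had log2 fold changes of 0.12 ± 0.11 (Srebf1), -0.05 ± 0.08 (Srebf2) and 0.09 ± 0.07 (Scap; SE, n = 4 per group), and none was called. Srebf1, which encodes SREBP1, ranged over 90.1 to 116 CPM in controls and 92.7 to 132 CPM in mutants. Srebf2, which encodes SREBP2, the main driver of the cholesterol genes, ranged over 158 to 189 and 151 to 182 CPM. Scap ranged over 70.0 to 77.3 and 74.4 to 87.1 CPM, so the groups overlapped for all 3 genes.

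**Figure D2:**
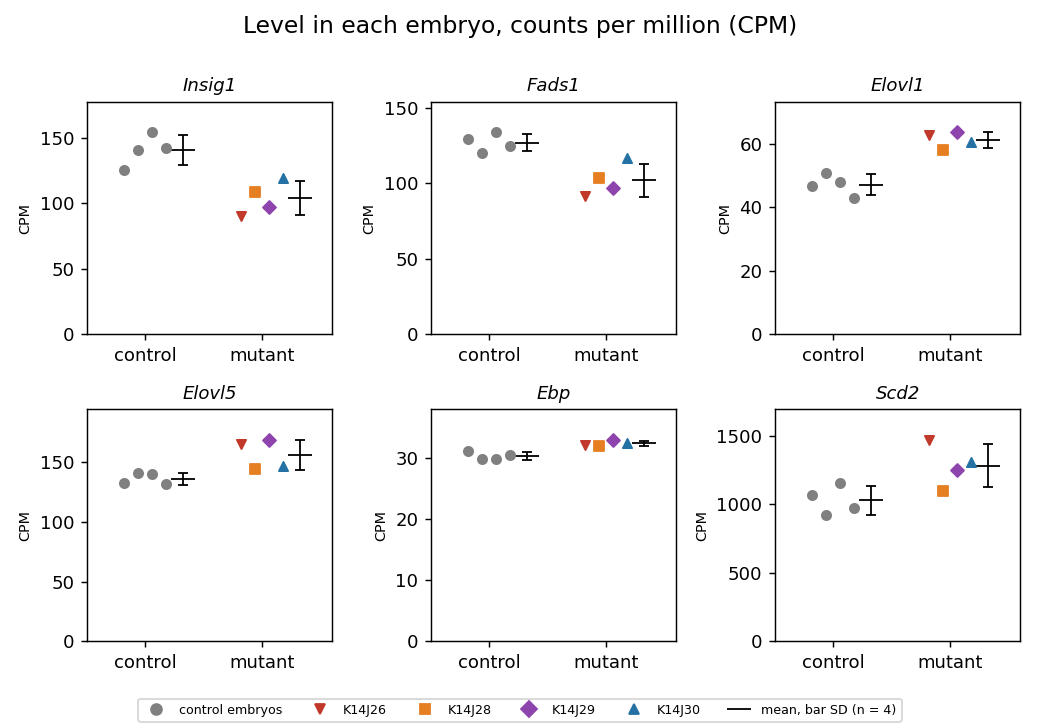
CPM of 6 synthesis genes in each embryo (points; y axis from 0), with the mean and SD of each group (n = 4) beside them. Insig1 and Fads1 were lower and Elovl1, Elovl5 and Ebp higher in all 4 mutants than in any control, whereas Scd2 overlapped.

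The mevalonate arm, which leads from acetyl-CoA to farnesyl pyrophosphate, had 0 of 7 genes called, also at an unadjusted p under 0.05 and with DESeq2. Its median log2 fold change was -0.13. Hmgcs1, the cytosolic HMG-CoA synthase, stood at 219, 209, 237 and 231 CPM in controls J3, J5, J6 and J7, and at 143, 259, 190 and 231 CPM in mutants K14J26, K14J28, K14J29 and K14J30. The mutant values lay on both sides of the controls, and the log2 fold change of Hmgcs1 was -0.12 ± 0.16 (SE). Acat2, the thiolase that joins acetyl-CoA units, stood at 80.7, 64.1, 71.3 and 69.4 CPM in the same controls, and at 35.5, 71.1, 53.8 and 71.6 CPM in the same mutants. K14J26 and K14J29 were below every control for Acat2, and K14J28 and K14J30 were within the control range (log2 fold change -0.30 ± 0.20 SE).

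The other genes of the arm were likewise not called. Idi1, which interconverts the isoprenoid units, ranged over 11.0 to 15.3 CPM in controls and 6.15 to 17.3 CPM in mutants. Fdps, the farnesyl pyrophosphate synthase, ranged over 90.2 to 114 and 63.2 to 115 CPM. The mevalonate kinases Mvk and Pmvk ranged over 25.3 to 29.1 and 20.3 to 25.2 CPM in controls, and over 22.5 to 29.1 and 19.3 to 26.4 CPM in mutants. Mvd, the decarboxylase after them, ranged over 18.3 to 22.3 CPM in controls and 16.5 to 25.3 CPM in mutants. The groups overlapped for all 7 genes, and all 7 had their lowest value in K14J26.

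The 11 enzymes from squalene to cholesterol had 0 called genes, a median log2 fold change of 0.05, and 1 gene, Fdft1, at an unadjusted p under 0.05; DESeq2 also called 0 at an adjusted p under 0.05. Fdft1, the squalene synthase, ranged over 51.8 to 58.7 CPM in controls and 53.6 to 80.2 CPM in mutants (log2 fold change 0.27 ± 0.12 SE, adjusted p = 0.129, edgeR quasi-likelihood test). The adjusted p of Fdft1 was 0.0239 without K14J26. Fdft1 shares 774 bases, 18.3% of its exon bases, with Ctsb on the opposite strand, and reads there cannot be told apart; Ctsb averaged 536 CPM with a log2 fold change of 0.16. Ebp, the isomerase that shifts a sterol double bond, lies on chromosome X and stood at 31.1, 29.8, 29.8 and 30.5 CPM in the controls and at 32.2, 31.9, 33.0 and 32.4 CPM in the mutants. All 4 mutants lay above all 4 controls for Ebp, but the difference was small (log2 fold change 0.10 ± 0.06 SE) and was not called at an adjusted p of 0.254 (edgeR quasi-likelihood test).

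The sterol desaturase Sc5d ranged over 30.2 to 34.2 CPM in controls and 17.3 to 36.6 CPM in mutants. Dhcr7, the reductase of the last step to cholesterol, ranged over 31.1 to 36.2 and 20.2 to 33.6 CPM. The log2 fold changes were -0.31 ± 0.19 and -0.28 ± 0.15 (SE), and without K14J28 Sc5d alone of the 18 cholesterol enzymes passed the edgeR quasi-likelihood test (adjusted p = 0.0227). Msmo1 and Nsdhl, which act in the removal of the sterol methyl groups, ranged over 21.2 to 57.1 and 20.3 to 35.9 CPM in mutants, and over 38.5 to 51.6 and 29.2 to 34.4 CPM in controls. Hsd17b7, a reductase of the same steps, ranged over 33.7 to 37.5 CPM in controls and 30.3 to 45.5 CPM in mutants. Both ends of the control range lay inside the mutant range for Msmo1, Nsdhl and Hsd17b7.

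The squalene epoxidase Sqle ranged over 84.2 to 102 CPM in controls and 80.3 to 107 CPM in mutants. Lss, which closes the rings to lanosterol, ranged over 46.2 to 53.5 and 41.4 to 67.4 CPM. The lanosterol demethylase Cyp51 ranged over 85.3 to 106 and 86.1 to 113 CPM, and the sterol reductase Tm7sf2 over 18.9 to 24.9 and 19.3 to 24.8 CPM. Their log2 fold changes were 0.07 (Sqle), 0.18 (Lss), 0.15 (Cyp51) and 0.03 (Tm7sf2), each with overlapping groups. Tm7sf2 shares 532 exon bases with Vps51.

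The enzymes from acetyl-CoA to palmitate had 0 of 3 genes called, also at an unadjusted p under 0.05 and with DESeq2. Acly, the citrate lyase that supplies cytosolic acetyl-CoA, stood at 220, 220, 224 and 228 CPM in the controls and at 182, 228, 207 and 226 CPM in the mutants. K14J26 and K14J29 were below the narrow control range of Acly, and the other two were inside it (log2 fold change -0.08 ± 0.08 SE). Acaca, the acetyl-CoA carboxylase, ranged over 42.3 to 53.2 CPM in controls and 38.0 to 56.7 CPM in mutants. Fasn, the fatty acid synthase, ranged over 154 to 204 and 136 to 209 CPM.

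The desaturases and elongases held 2 of the 3 called members. Elovl1 (chr4:118428093-118432953, plus strand) stood at 46.7, 50.8, 48.0 and 42.8 CPM in controls J3, J5, J6 and J7, and at 62.8, 57.9, 63.6 and 60.5 CPM in mutants K14J26, K14J28, K14J29 and K14J30. All 4 mutants lay above all 4 controls. The means were 47.1 ± 3.29 and 61.2 ± 2.54 CPM (SD, n = 4 each). Its log2 fold change was 0.38 ± 0.07 (SE, adjusted p = 0.0136, edgeR quasi-likelihood test). The adjusted p of Elovl1 was 0.0521 without K14J29, 0.146 without J6 and J7, and 0.0597 with library size as the only scaling. With any 1 embryo left out, the log2 fold change of Elovl1 stayed between 0.33 and 0.40. Elovl1 shares 53 exon bases, 1.94% of its own, with Cdc20 on the opposite strand, whose log2 fold change was -0.47.

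Fads1 encodes a front-end desaturase that acts in the synthesis of arachidonic acid. Fads1 (chr19:10182888-10196877, plus strand) stood at 129, 120, 134 and 125 CPM in the controls, and at 91.1, 104, 96.5 and 116 CPM in the mutants. All 4 mutants were below all 4 controls, with K14J30 closest to them. The means were 127 ± 5.83 and 102 ± 11.0 CPM (SD, n = 4 each), so that Fads1 fell by 19.7% (log2 fold change -0.32 ± 0.08 SE, adjusted p = 0.0326, edgeR quasi-likelihood test). The adjusted p rose to 0.0850 without J3, 0.0627 without J5, 0.0840 without J6, 0.0831 without J7 and 0.0948 without K14J29. It was 0.217 without J6 and J7, 0.110 without K14J28 and K14J29, and 0.107 without K14J26 and K14J29 (edgeR quasi-likelihood test). With Xist as a covariate it was 0.0951, and with library size as the only scaling 0.0580 (same test). The log2 fold change of Fads1 stayed between -0.39 and -0.27 with any 1 embryo left out. Fads2, the desaturase that acts before it, ranged over 55.7 to 62.2 CPM in controls and 50.1 to 59.5 CPM in mutants, with a log2 fold change of -0.11 ± 0.07 (SE) and overlapping groups.

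Scd2, a stearoyl-CoA desaturase that makes monounsaturated chains, was the most abundant member per kb of exon. Scd2 stood at 1071, 920, 1157 and 976 CPM in the controls and at 1473, 1097, 1252 and 1311 CPM in the mutants. The mutants K14J26, K14J29 and K14J30, were above every control, and K14J28 was within the control range. The log2 fold change of Scd2 was 0.32 ± 0.11 (SE, adjusted p = 0.0673, edgeR quasi-likelihood test). Its adjusted p by the same test was 0.0233 without K14J28, 0.0469 without K14J28 and K14J29, and 0.0389 with Xist as a covariate. DESeq2 also called Scd2, which made 4 calls over 20 fits, the main one included. Scd1, its close relative, stood at 119, 126, 160 and 116 CPM in the controls and at 157, 117, 169 and 173 CPM in the mutants. K14J28 was again the lowest mutant, and the groups overlapped (log2 fold change 0.24 ± 0.14 SE); Scd1 and Scd2 are near relatives, and how reads with several matches were counted is not given.

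Elovl5, an elongase of polyunsaturated chains, stood at 132, 141, 140 and 131 CPM in the controls and at 165, 144, 169 and 147 CPM in the mutants. All 4 mutants were above all 4 controls, and the log2 fold change of 0.20 ± 0.07 (SE) had an adjusted p of 0.0781 (edgeR quasi-likelihood test), or 0.0363 without K14J28. Elovl6, which elongates palmitate, stood at 178, 158, 159 and 158 CPM in the controls and at 92.3, 166, 137 and 165 CPM in the mutants. K14J26 and K14J29 were below every control for Elovl6, and K14J28 and K14J30 lay inside the control range (log2 fold change -0.22 ± 0.16 SE).

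Per kb of exon, Scd2 averaged 189 CPM in the control molars, followed by Hmgcs1 at 48.8, Insig1 at 45.5, Acly at 42.2 and Elovl5 at 38.7 CPM per kb. Levels then ran down to Idi1 at 3.74 and Acaca at 2.82 CPM per kb. Fads1 was at 26.4 and Elovl1 at 17.3 CPM per kb. The called members were therefore neither the least nor the most abundant genes of the set.

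The mutant embryos differed among themselves in these genes more than the controls did. The SD over the mutants was larger than over the controls in 28 of 32 members, or 87.5%, against 73.1% of all tested genes. K14J26 had the lowest value of all 8 embryos in 21 of 32 members, or 65.6%, against 27.2% of all tested genes, and in 14 of the 18 cholesterol enzymes. K14J30 had the highest value in 10 of 32 members, against 6.90% of all tested genes. These counts are descriptions of single embryos and carry no test.

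The mutants also stood apart from each other when the genes were taken by step. Relative to the mean of the controls, the median log2 ratio of the 7 mevalonate genes was -0.65 in K14J26, -0.21 in K14J29, -0.0047 in K14J28 and 0.08 in K14J30. Over the 18 cholesterol enzymes it was -0.28, -0.11, 0.13 and 0.15 in the same order. The medians of the desaturases and elongases stood otherwise, at 0.27 in K14J26, 0.28 in K14J29, 0.02 in K14J28 and 0.11 in K14J30. Members of this list went both ways in K14J26. It was lowest of all 8 embryos in 3 of the 7 genes, Elovl6 (-0.82), Fads1 (-0.48) and Fads2 (-0.22), and highest in 1. Among the 4 regulators, K14J26 was highest of all 8 embryos in 2, Srebf1 (0.38) and Scap (0.24), and lowest in 1, Insig1 (-0.64). The summed level of the mevalonate genes was 306 CPM in K14J26 and 409 CPM in K14J29, below the control range of 452 to 508 CPM, and 509 and 512 CPM in K14J28 and K14J30. The sum of the 11 genes from squalene to cholesterol was 426 CPM in K14J26, below the controls at 489 to 563 CPM, and 596 and 605 CPM in K14J28 and K14J30, above them. The sum of the desaturases and elongases, which is mostly Scd2, was 2092 CPM in K14J26 against 1574 to 1859 CPM in the controls. It was 1940 CPM in K14J29 and 2031 CPM in K14J30, also above the controls, and 1741 CPM in K14J28, within their range.

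**Figure D3:**
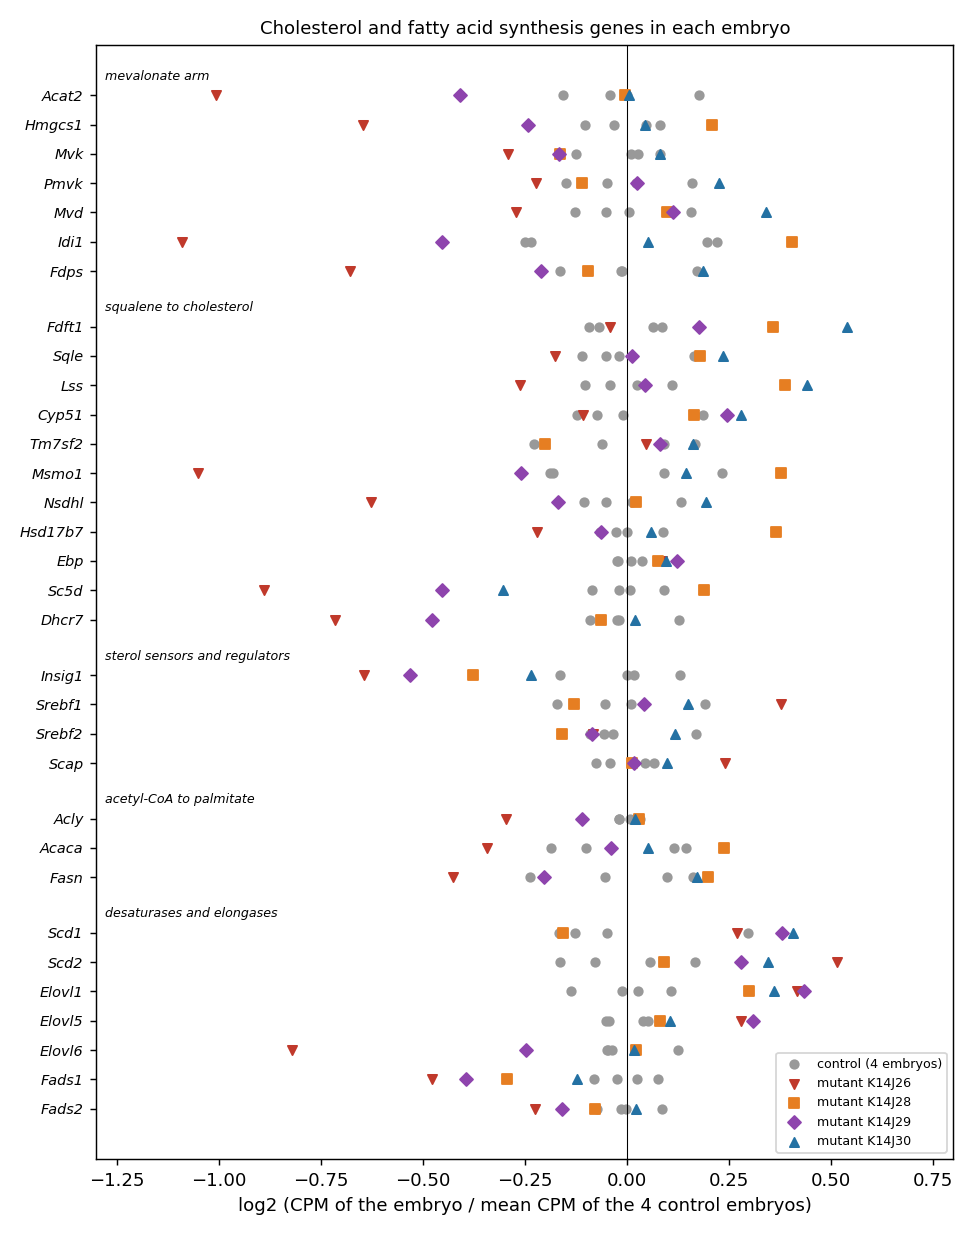
Log2 ratio of the CPM of each embryo to the mean of the 4 controls for the 32 synthesis genes, grouped by step; grey circles are controls and coloured symbols the 4 mutants. K14J26 (red) is lowest of all 8 embryos in 21 genes, among them all 7 of the mevalonate arm. It lies above every control for Ebp, Srebf1, Scap, Elovl1, Elovl5 and Scd2.

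The embryo with the lowest values was also the one with the most enamel matrix transcripts. The share of counts taken by Amelx, Ambn and Enam was highest in K14J26 at 9.57%, and it was 2.47% in K14J29, 0.356% in K14J28 and 0.965% in K14J30. Without K14J26, the median log2 fold change of the 18 cholesterol enzymes moved from -0.06 to 0.05, that of the mevalonate arm from -0.13 to 0.02 and that of all members from -0.03 to 0.04. Without K14J26 and K14J29 together, the medians of the cholesterol enzymes and the mevalonate arm were 0.12 and 0.06, 3 of 32 members (Elovl1, Fdft1 and Lss) were called higher, and no member was called lower, where 4.45% of all tested genes were called higher and 3.39% lower (edgeR quasi-likelihood test). At an unadjusted p under 0.05, 6 members were higher and 2 lower in that fit. Of the 16795 genes tested there, 2459 were higher and 2180 lower at this threshold (edgeR quasi-likelihood test). These 2 embryos were chosen after their low values had been seen, so higher medians without them follow from the choice. The part of the enamel transcripts in these values was not tested.

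**Figure D4:**
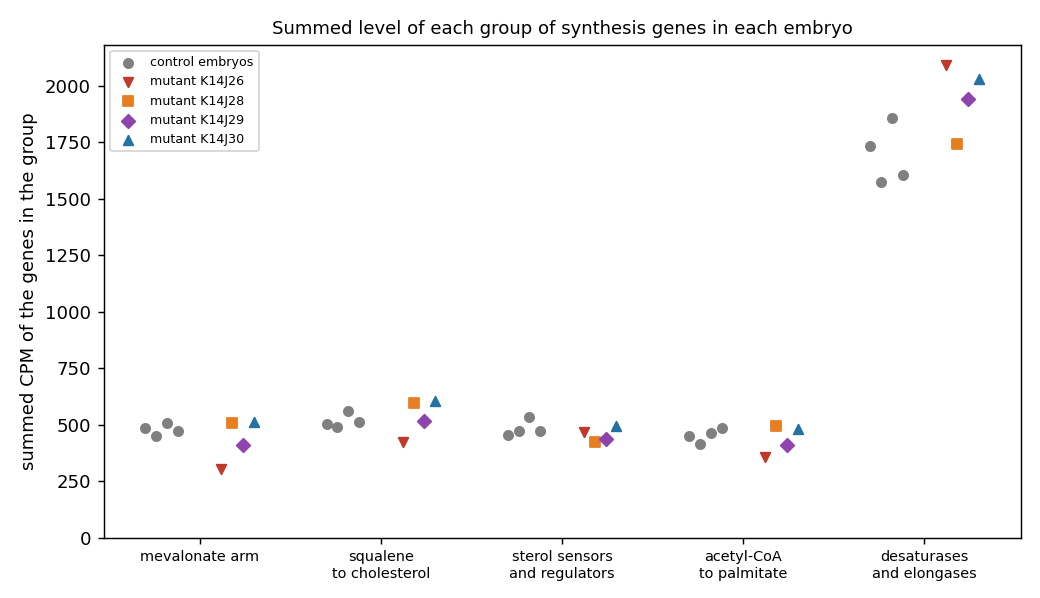
Summed CPM of each group of synthesis genes in each embryo (y axis from 0); grey circles are the 4 controls and coloured symbols the 4 mutants. The mevalonate sum of K14J26 is 306 CPM against 452 to 508 CPM in the controls, while its sum of desaturases and elongases, 2092 CPM, is the highest of the 8 embryos.

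Markers of several cell types moved with the groups. Ameloblast markers (Amelx, Ambn, Enam and 4 others) summed to 711 to 3423 CPM in controls and 3959 to 114750 CPM in mutants, and 5 of the 6 tested were called higher. Odontoblast markers, led by Dspp, Dmp1 and Nes, summed to 708 to 1994 and 2347 to 7483 CPM, with 3 of 4 (Dspp, Phex and Nes) higher. Dmp1 was not called (log2 fold change 0.59 ± 0.30 SE). Osteoblast markers, led by Col1a1, Spp1 and Ibsp, summed to 4377 to 6965 and 6428 to 17314 CPM, with 4 of 6 higher. Col1a1 made up most of that sum, at a mean of 5111 of 5707 CPM in controls. Spp1 and Ibsp were not called, with log2 fold changes of -0.26 ± 0.38 and 0.34 ± 0.34 (SE). Epithelial markers, led by Krt5, Krt14 and Krt17, summed to 5585 to 6373 and 6439 to 9122 CPM, with 1 of 7 higher. The epithelial adhesion gene Epcam, singled out after its values were seen, went the other way, at 218 to 255 CPM in controls and 113 to 195 CPM in mutants with no overlap (log2 fold change -0.51 ± 0.16 SE, adjusted p = 0.0527, edgeR quasi-likelihood test). Mesenchymal markers, led by Col3a1, Vim and Pdgfra, summed to 2691 to 3277 and 2609 to 2823 CPM, with 1 higher and 4 lower of 7. The ameloblast marker Amtn was at 0 to 0.166 CPM in controls and 0.116 to 4.13 CPM in mutants and was not tested.

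Adipocytes express many of these enzymes strongly, but their markers were low in the molars. Of 9 adipocyte markers, 7 did not pass the count filter, and their sum was 8.64 to 11.8 CPM in controls and 6.87 to 11.0 CPM in mutants, mainly Fabp4 and Pparg. Schwann cell markers, from cells rich in sterol synthesis, summed to 106 to 124 and 99.8 to 114 CPM, with 1 of 9 tested, Erbb3, called lower. Endothelial markers summed to 304 to 340 and 245 to 300 CPM with 1 of 6 lower, and 0 of 6 red cell and 0 of 7 macrophage markers were called. At an unadjusted p under 0.05 (edgeR quasi-likelihood test), 1 of 2 tested adipocyte markers, Pparg, was higher. At that threshold 2 Schwann cell and 3 endothelial markers were lower, 1 macrophage marker was higher and 0 red cell markers passed. Skeletal muscle markers were high in J6 and J7, as given above, and with those controls left out none of the 32 members was called; 2 were higher and 2 lower at an unadjusted p under 0.05, where 12.0% of all tested genes were higher and 8.89% lower. In that comparison the edgeR quasi-likelihood test called 3 genes higher and 4 lower in all. There the log2 fold changes were -0.36 (Insig1), -0.29 (Fads1) and 0.32 (Elovl1), against -0.44, -0.32 and 0.38 with all embryos. The part of any of these cell types in the changes of Insig1, Fads1 and Elovl1 was not tested.

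Counts of called genes in 6 other lipid lists are given against the same background of 9.52% of all tested genes higher and 6.61% lower, and no list was tested as a whole. Of 11 further sterol and isoprenoid genes, 2 rose and none fell; Insig2, the second retention protein of SREBP, stood at 31.6 to 37.9 CPM in controls and 47.3 to 56.0 CPM in mutants (log2 fold change 0.58 ± 0.08 SE, adjusted p = 0.00779, edgeR quasi-likelihood test). Insig2 thus rose in the molars in which Insig1 fell. Aacs, which activates acetoacetate for lipid synthesis, rose by a log2 fold change of 0.36 ± 0.09 (SE). Of 14 genes of sterol uptake, transport and storage, 3 rose and 2 fell. The lipoprotein receptor Vldlr (log2 fold change 0.68), the oxysterol-binding protein Osbp (0.46) and the lysosomal cholesterol exporter Npc1 (0.36) rose. Mylip was 1 of the 2 that fell (log2 fold change -0.31 ± 0.09 SE, adjusted p = 0.0487, edgeR quasi-likelihood test), with overlapping groups. Mylip lies outside the naming rule and was named after its values were seen.

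Of 9 tested genes of the liver X receptor response and sterol efflux, 3 were called higher and none lower, against 9.52% and 6.61% of all tested genes. The efflux transporters Abca1 and Abcg1 had log2 fold changes of 0.75 ± 0.17 and 0.62 ± 0.13 (SE), and Cyp27a1, which makes oxysterols, 0.50 ± 0.14. Abca1 stood at 80.2 to 94.1 CPM in controls and 111 to 196 CPM in mutants, with no overlap. Cyp7b1 of the same list, named after its values were seen, went the other way. It stood at 3.22 to 4.49 CPM in controls and 2.56 to 3.08 CPM in mutants, with no overlap. Cyp7b1 was not called (log2 fold change -0.39 ± 0.16 SE, adjusted p = 0.119, edgeR quasi-likelihood test).

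Of 24 tested further genes of fatty acid synthesis, activation and elongation, 4 rose and none fell, beside the background of 9.52% and 6.61%. Mlx, the partner of the sugar-sensing factor ChREBP (log2 fold change 0.48), the acyl-CoA synthetase Acsl3 (0.31), the elongase Elovl7 (0.72) and the desaturase family member Fads6 (0.72) were the 4. Levels were low for Elovl7, at 2.05 to 4.33 CPM over all embryos, and for Fads6, at 1.22 to 2.93 CPM. With 1 embryo left out, Elovl7 was called in 4 of 8 fits and Fads6 in 1 of 8. Of 13 glycerolipid genes, the acyltransferase Gpat3 rose (1.14 ± 0.27 SE) and the phosphatidate phosphatase Lpin2 fell (-0.32 ± 0.10 SE). Of 19 genes of fatty acid oxidation, 5 rose and 1 fell, again beside 9.52% and 6.61% of all tested genes; the carnitine palmitoyltransferases Cpt1c and Cpt1a had log2 fold changes of 0.64 and 0.58, and the dehydrogenase Acadvl 0.37. The gene that fell was Echs1, an enoyl-CoA hydratase (log2 fold change -0.22 ± 0.06 SE, adjusted p = 0.0316, edgeR quasi-likelihood test). The naming rule does not reach Echs1, which was named after its values were seen. No oxidation gene was called lower when J3, J5, J6, J7 or K14J29 was left out singly, or with no count filter. The 17 genes named from these lists were chosen as called ones with the smallest p, so their directions are not a sample of the lists. Cpt1c, Insig2 and Mlx were called with any 1 embryo left out; of the 17, 4 were called without J3, 8 without J5, 12 without J6, 4 without J7, 14 without K14J26, 16 without K14J28, 3 without K14J29, 13 without K14J30 and 0 without J6 and J7 together.

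**Figure D5:**
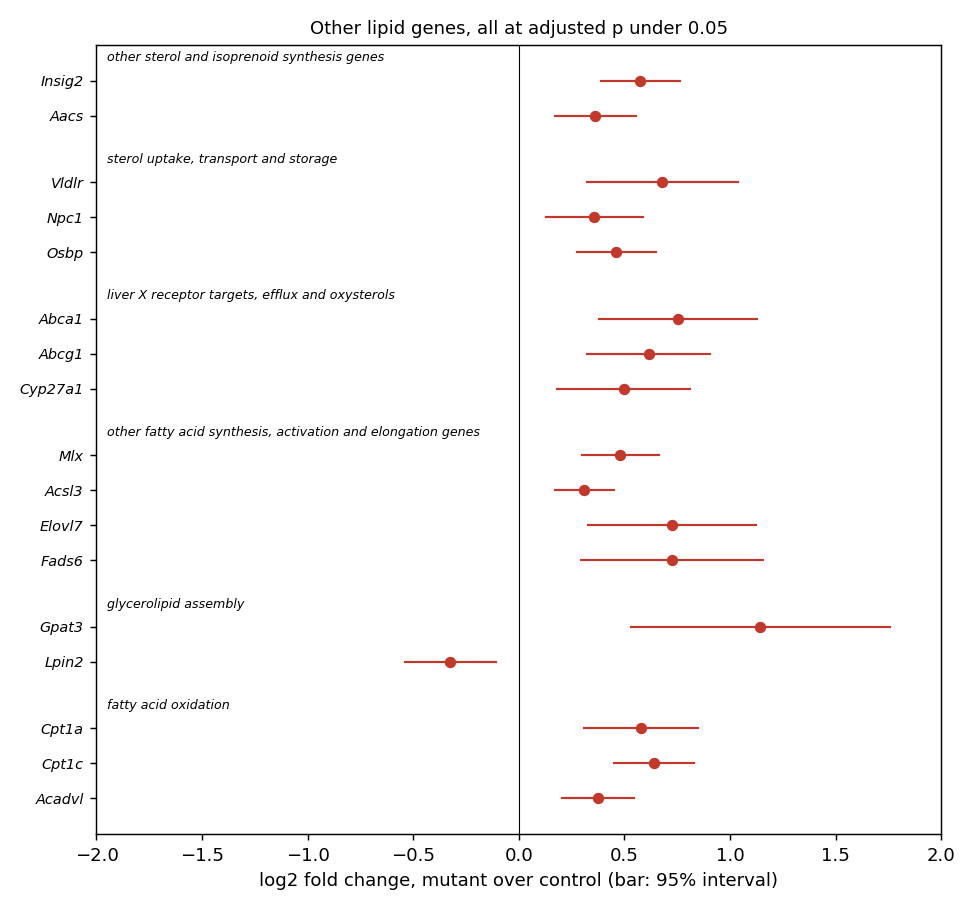
Log2 fold change, mutant over control molars, with 95% intervals for the 17 called genes named from 6 other lipid lists (edgeR quasi-likelihood test, 4 against 4 embryos). Lpin2 lies below 0, and the other genes, led by Gpat3 at 1.14, lie above it.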

How the data were processed

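RNA-seq of lower first molars at E18.5 covered 4 control and 4 mutant embryos, grouped by their labels. Per the study's methods, the authors used Trimmomatic for trimming and STAR for alignment to GRCm38 (GRCm38.p3 in the submitters' processing notes) and GenomicRanges for counting reads per Ensembl gene, while the notes also name featureCounts. The deposited values are raw read counts of 43629 genes in one table per embryo. The handling of reads with several matches and of strand is not given in the sources used here, and the library kit does not mark strand, so reads of overlapping genes cannot be told apart.

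Symbols and positions came from GENCODE M21 (42548 of 43629 identifiers matched). A gene was tested if 2 or more embryos of one group had 10 counts or more, which held for 17129. Counts were scaled by TMM and tested with edgeR 4.0.16 (quasi-likelihood test, R 4.3.3) in a fit of genotype alone; p-values were adjusted by Benjamini-Hochberg over all 17129 genes, with a threshold of 0.05 and 95% intervals. The code was tested on simulated data. Printed levels are CPM on the TMM-scaled library size.

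The members and lists were chosen with earlier results of these data known. All 32 members are described; of every other lipid list up to 4 called genes with the smallest p are named, and of marker lists up to 3 with the highest CPM. Named genes leave out 2 that are not reported here. Values per embryo are given for called members and for at most 8 others that are the most abundant per kb or whose groups did not overlap. Alternatives were 4 other scalings, 2 other filters, DESeq2 1.42.0, the study's criteria (unadjusted p of at most 0.05 and a fold change of at least 0.5, read here as the absolute log2 ratio), embryos left out singly or in pairs, and Xist as a covariate. Leaving out K14J26 with K14J29 was added after seeing the data.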

Additional observations from a re-analysis of the deposited data

Results flagged for a closer look

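Of 102 control or mutant groups of 4 embryos tested over the members and the genes named beside them, 2 held a single embryo far from the rest, and about 1 in 20 groups is picked out in this way by chance. Elovl6, the elongase of saturated and monounsaturated chains, stood at 178 CPM in control J3 and between 158 and 159 CPM in the other controls. Elovl7, an elongase of the related list, stood at 2.93 CPM in control J5 and between 2.05 and 2.13 CPM in the other controls. The mutant range of Elovl6 was 92.3 to 166 CPM, so control J3 lay above every mutant embryo.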

How the results depend on the processing

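Leaving out 1 embryo at a time gave 250 to 2479 higher and 170 to 1843 lower genes over all genes tested, in place of 1631 and 1133, and 0 to 3 higher and 0 to 3 lower members, in place of 1 and 2. With library size as the only scaling, 855 genes were higher and 1060 lower, with 0 members higher and 1 lower. Without J6 and J7 the edgeR quasi-likelihood test called 3 genes higher and 4 lower, and 0 members either way. Without K14J26 and K14J29, 747 genes were higher and 570 lower, with 3 members higher and 0 lower. Without K14J28 and K14J29 the members came to 2 and 0, with Xist as a covariate also to 2 and 0 (733 genes lower), with DESeq2 to 2 higher, and by the study's criteria to 0 and 0. Under all 19 alternatives that give a fold change, Insig1 and Fads1 kept a log2 fold change below 0 and Elovl1 above 0, and the direction changed only in members with no call.

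The log2 fold changes that changed direction were as follows; the cause was not tested. Without K14J26 and K14J29 they were 0.124 for Hmgcs1, 0.0626 for Pmvk, 0.234 for Idi1, 0.0481 for Fdps, -0.0129 for Tm7sf2, 0.262 for Msmo1, 0.107 for Nsdhl, 0.0198 for Acly, 0.143 for Acaca, 0.181 for Fasn and 0.0152 for Elovl6. Without J6 and J7 they were 0.0764 for Idi1, 0.0811 for Msmo1, 0.0095 for Srebf2, 0.0007 for Acaca and 0.0993 for Fasn. With library size only they were -0.0155 for Sqle, -0.0727 for Tm7sf2, -0.0320 for Hsd17b7, -0.0041 for Ebp and -0.0114 for Scap, and with upper-quartile factors -0.0142 for Tm7sf2. Without K14J28 and K14J29 they were 0.0139 for Pmvk, -0.0797 for Hsd17b7 and 0.0126 for Srebf2, and with Xist as a covariate 0.0168, -0.0874 and 0.0247. With 1 embryo left out the range was -0.257 to 0.0156 for Hmgcs1, -0.0975 to 0.0538 for Pmvk, -0.0056 to 0.190 for Mvd, -0.423 to 0.0423 for Idi1, -0.0472 to 0.0947 for Tm7sf2, -0.308 to 0.111 for Msmo1, -0.230 to 0.0243 for Nsdhl, -0.0730 to 0.133 for Hsd17b7, -0.108 to 0.0085 for Srebf2, -0.104 to 0.0881 for Acaca and -0.135 to 0.0673 for Fasn. The study calls the controls littermates of the mutants, but the litter of each embryo was not given by the labels. No analysis paired or blocked by litter was therefore possible, and the part of litter in these values was not tested. The small difference of Ebp was not called with 4 embryos a group, and whether more embryos would call it was not tested.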
